A study of Mus musculus with 14 samples.

Results

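The kinesin and dynein genes were the rows of the mouse gene count table whose symbol begins with Kif, Klc, Dnah or Dync followed by a digit. The rule found 67 rows among 46095: 45 kinesins (Kif heavy chains and Klc light chains), 7 cytoplasmic dynein subunits (Dync) and 15 axonemal dynein heavy chains (Dnah). Of these, 58 held enough counts to be tested beside 17693 genes in all: 40 kinesins, all 7 cytoplasmic dyneins and 11 axonemal dyneins. The symbol rule also takes in Kif1bp, which encodes a kinesin-binding protein and no motor, the antisense transcript Kif16bos and the pseudogenes Kif22-ps and Kif4-ps, and it leaves out kinesins with other names such as Kifc1 and Cenpe.

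Kinesins and dyneins are motor proteins that use ATP to walk along microtubules. Most kinesins carry vesicles, mitochondria and other cargo towards the cell edge, a subgroup builds the mitotic spindle and divides the cell, and cytoplasmic dynein-1 carries cargo back towards the centre of the cell. Cytoplasmic dynein-2 and kinesin-2 run inside the cilium, and axonemal dyneins bend motile cilia and sperm tails, which smooth muscle cells lack. Mitotic kinesins are made by dividing cells, which are few in a resting artery wall.

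RNA sequencing was done on the superior mesenteric artery (SMA), the vessel that feeds most of the intestine, of 14 mice of the strain C57BL/6 aged 8 weeks, 1 library per mouse. The groups were Normal WT (Drp1 +/+, untreated, 3 mice), Normal KO (labelled Drp1 flox/+, untreated, 4 mice), Ischemia WT (Drp1 +/+, ischemia treatment, 3 mice) and Ischemia KO (Drp1 flox/+, ischemia treatment, 4 mice). Drp1, encoded by Dnm1l, is the GTPase that divides mitochondria. The study describes the KO allele as a frameshift at exon 2 made with CRISPR/Cas9 and carried on 1 chromosome only, which differs from the floxed allele in the labels, and the ischemia as blood loss, for which the library codes give 2 h. The study's text names a longer period, so the duration is in doubt. The comparison asked how a lowered dose of Drp1 changes the transcripts of the artery at rest and after ischemia.

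Total counts per library ran from 25612646 to 40255851. Levels are given as CPM, counts per library scaled to 1000000 after correction of library sizes, as mean ± SD over mice. Dnm1l was at 73.5 ± 15.1 CPM in Normal WT (n = 3) and 58.9 ± 3.30 in Normal KO (n = 4), and at 75.0 ± 10.3 in Ischemia WT (n = 3) and 69.4 ± 6.88 in Ischemia KO (n = 4); a gene count cannot show a frameshift. The libraries differed in cell type markers. The summed level of 6 smooth muscle markers ran from 7006 to 36209 CPM and that of 4 brown adipocyte markers from 169 to 6344 CPM, with the lowest smooth muscle and the highest brown adipocyte sum both in Normal WT replicate 2. Normal WT replicate 3 was the only library from lane 1, and the other 13 came from lane 8. In whole tissue, fewer cells of a type and less RNA per cell cannot be told apart.

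Kinesin heavy chains bind ATP through a loop (P-loop) in the motor head, shown here as coding sequence. In the longest reading frames of the GENCODE M21 transcripts (GRCm38), 33 of 37 Kif genes (Kif1bp left out) held the loop in its usual kinesin form, and none of the 4 Klc genes did, since light chains bind cargo and carry no motor head. The same pattern also matched some axonemal dyneins, among them Dnah1, Dnah10 and Dnah14, so it does not mark kinesins alone. The stretches below are shown for the kinesins that the results name most, 5′ to 3′ in coding direction, with the 24 bases of the loop in capitals.
Kif21b: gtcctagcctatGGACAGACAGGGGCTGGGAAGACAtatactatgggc
Kif21a: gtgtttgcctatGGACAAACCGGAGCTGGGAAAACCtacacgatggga
Kif3a: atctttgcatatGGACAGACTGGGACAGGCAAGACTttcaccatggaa
Kif13a: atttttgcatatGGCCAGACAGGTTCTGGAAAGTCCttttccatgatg
Kif5a: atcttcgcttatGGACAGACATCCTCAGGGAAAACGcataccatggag
Kif23: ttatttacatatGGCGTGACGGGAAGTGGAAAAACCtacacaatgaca
The loop lies at bases 259 to 282 of the coding sequence in Kif21b and at 334 to 357 in Kif23. Of its 24 bases, Kif21a shared 19 with Kif21b, Kif3a 19, Kif13a 18, Kif5a 17 and Kif23, the most different of those shown, 14. Over the whole exons the kinesins named here are well separated: Kif21b, Kif13a, Kif5a and Klc1 shared no 50-base stretch with another gene, whereas Dnah7a, Dnah7b and Dnah7c shared 38.6%, 30.0% and 46.8% of theirs, mostly with each other, so that their counts are uncertain.

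Per kilobase of exon, which allows genes of different length to be compared, the artery held kinesin-1, dynein-1 and kinesin-3 transcripts at the highest levels. Klc1, a kinesin-1 light chain, ranked 1st at a mean of 35.7 CPM per kb over the 14 mice (range 19.9 to 54.6), followed by Dync1h1, the dynein-1 heavy chain, at 28.2, Kif13a, a kinesin-3 that moves endosomes, at 20.4, and Dync1li1, a dynein-1 light intermediate chain, at 17.6. Kif1c (16.1) and Kif5b (16.02), a kinesin-3 and the broadly expressed kinesin-1 heavy chain, came next, and the ranges of these 6 genes over the mice overlapped. The neuronal paralogs of Kif5b were far lower, with Kif5c at 0.486 and Kif5a at 0.296 CPM per kb, and Kif21b was at 0.546. All 11 mitotic kinesins lay between 0.0366 (Kif15) and 0.208 CPM per kb (Kif11). Axonemal dyneins were low as well, with Dnah8 highest at 0.140 and Dnah14 lowest at 0.0150, and Dync1i1, the neuronal dynein intermediate chain, stood at 0.0321 against 8.99 for its widely expressed paralog Dync1i2. Of the 6 ciliated cell markers, Sntn was at 0 in every mouse and Foxj1, the regulator of motile cilia, reached at most 0.461 CPM and was at 0 in 4 mice, while the 6 markers summed to between 4.43 and 10.8 CPM over all mice.

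**Figure D1:**
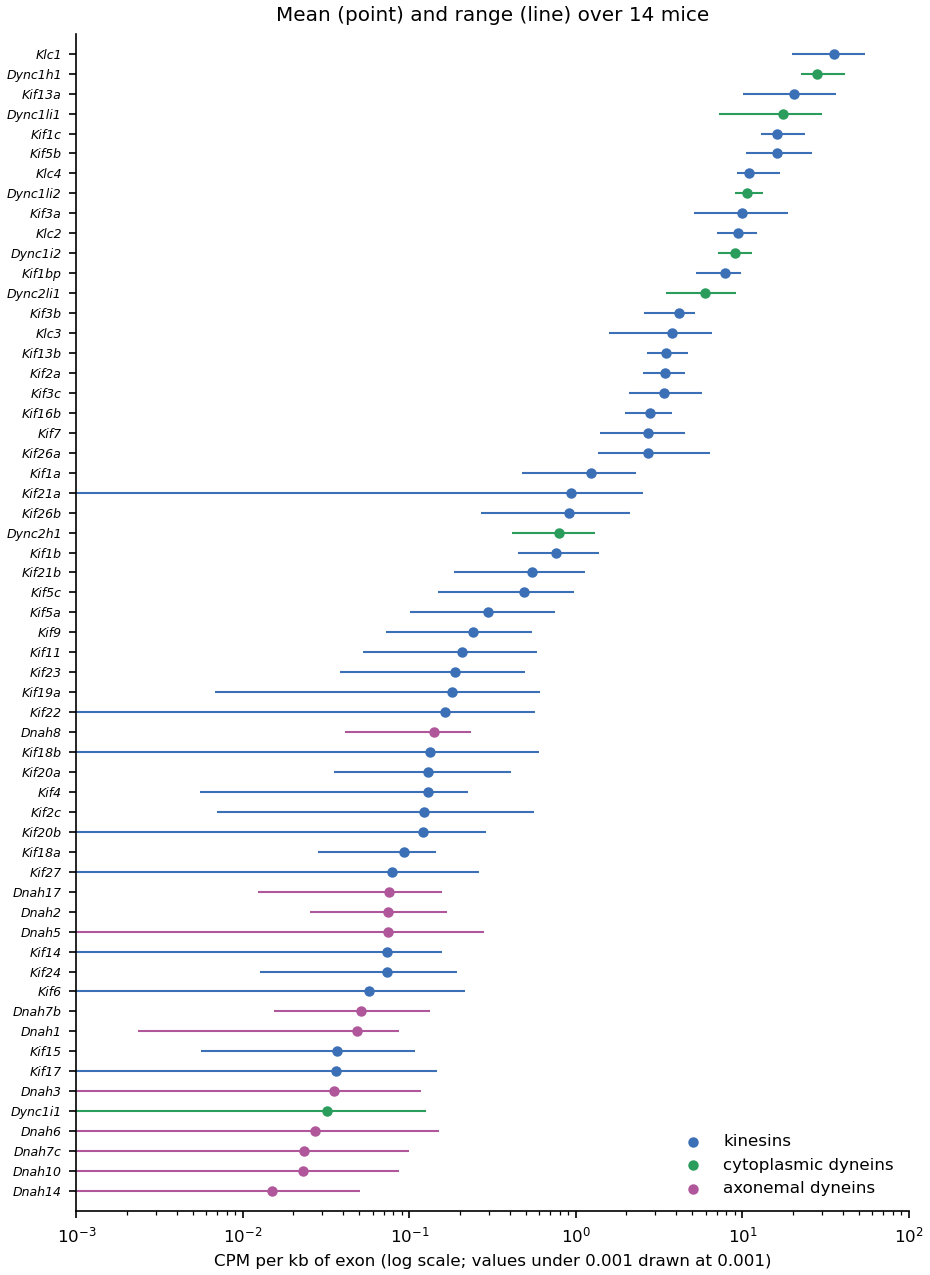
Level of each of the 58 tested members in CPM per kb of exon on a log axis, with the mean over the 14 mice as a point and the range as a line. Klc1 and Dync1h1 lead at 35.7 and 28.2, while the axonemal dyneins all lie at or under 0.140.

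Only Kif21b passed the test among the 58 members, and only for ischemia. A gene was called when edgeR's quasi-likelihood test, adjusted by Benjamini-Hochberg over all 17693 genes (FDR), gave under 0.05 and the fold change was over 1.5. Ischemia against normal in KO mice gave 1 called member, Kif21b, where 0.294% of all genes were called, and the average of both genotypes gave the same gene, where 0.927% were called. No member was called for ischemia in WT mice (0.0113% of all genes; with a replicate block 0 genes were called there), nor for KO against WT under normal conditions, after ischemia or over both conditions, for the difference of the ischemia effects (interaction), or in the test over Normal WT, Ischemia WT and Ischemia KO, where the share of all genes called was 0% in each. At an unadjusted p under 0.05 the members' share was above that of all genes for KO against WT in each condition and for the interaction, and near or below it otherwise. For KO against WT the counts were 6 of 58 under normal conditions and 6 after ischemia, beside 5.25% and 6.48% of all genes, and 4 over both conditions, beside 7.77%. Dync1i1, counted under normal conditions and over both, had enough counts to be tested only through KO mice. For ischemia they were 5 in WT, 8 in KO and 8 over both genotypes, beside 9.57%, 13.2% and 18.1%, and for the interaction and the 3 groups they were 4 and 2, beside 4.32% and 8.35%. Dnah7c, counted for ischemia in KO, had enough counts to be tested only with the help of Ischemia KO mice. After ischemia all 6 members with p under 0.05 (Dync1h1, Dync2h1, Kif21b, Kif3a, Kif5a and Klc1) were lower in KO than in WT. The 4 brown adipocyte markers moved the other way, with sums of 264 to 1405 CPM in Ischemia WT and 963 to 4700 in Ischemia KO, a median log2 fold change of 2.05, and 2 of 4 (Elovl3 and Ucp1) higher with p under 0.05 and none called; the sums were 169 to 6344 in Normal WT and 1088 to 6035 in Normal KO. With their level as a covariate, chosen after seeing the data, the log2 fold changes were −0.32 for Dync1h1, −0.49 for Dync2h1, −0.87 for Kif21b, −0.39 for Kif3a and −0.11 for Klc1, with the edgeR FDR between 0.625 and 0.954. Kif5a was not followed in these fits. After ischemia the marker level and the genotype largely went together, so their parts cannot be told apart by this covariate. The part of adipocytes in these values was not tested. With DESeq2 the called members were 1 for KO against WT after ischemia, 1 for the interaction and 1 for the 3 groups, Kif21b in each, and 0 for KO against WT under normal conditions or over both conditions and for ischemia in WT.

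The median log2 fold change of the 40 kinesins was −0.15 for KO against WT under normal conditions, −0.08 after ischemia, −0.02 for ischemia in WT and −0.03 for ischemia in KO. The 7 cytoplasmic dyneins had medians of −0.10, −0.13, 0.29 and 0.17 in the same order, and the 11 axonemal dyneins 0.17, −0.48, 0.79 and −0.12, where all genes had −0.02, −0.03, −0.01 and −0.05. Leaving out single mice moved the axonemal medians from −0.35 (without Normal KO replicate 1) to 0.43 (without Normal WT replicate 1) for KO against WT under normal conditions and from −0.75 (without Ischemia WT replicate 3) to −0.18 (without Ischemia WT replicate 2) after ischemia. For ischemia they moved from 0.05 (without Ischemia WT replicate 2) to 1.08 (without Ischemia WT replicate 3) in WT and from −0.32 (without Ischemia KO replicate 1) to 0.00 (without Normal WT replicate 2) in KO. The kinesin medians also turned sign, to 0.04 without Normal WT replicate 1 under normal conditions, to 0.13 without Ischemia WT replicate 2 after ischemia and to 0.02 without Normal WT replicate 1 for ischemia in WT. These comparisons share their groups in pairs, so their values are not independent of each other.

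**Figure D2:**
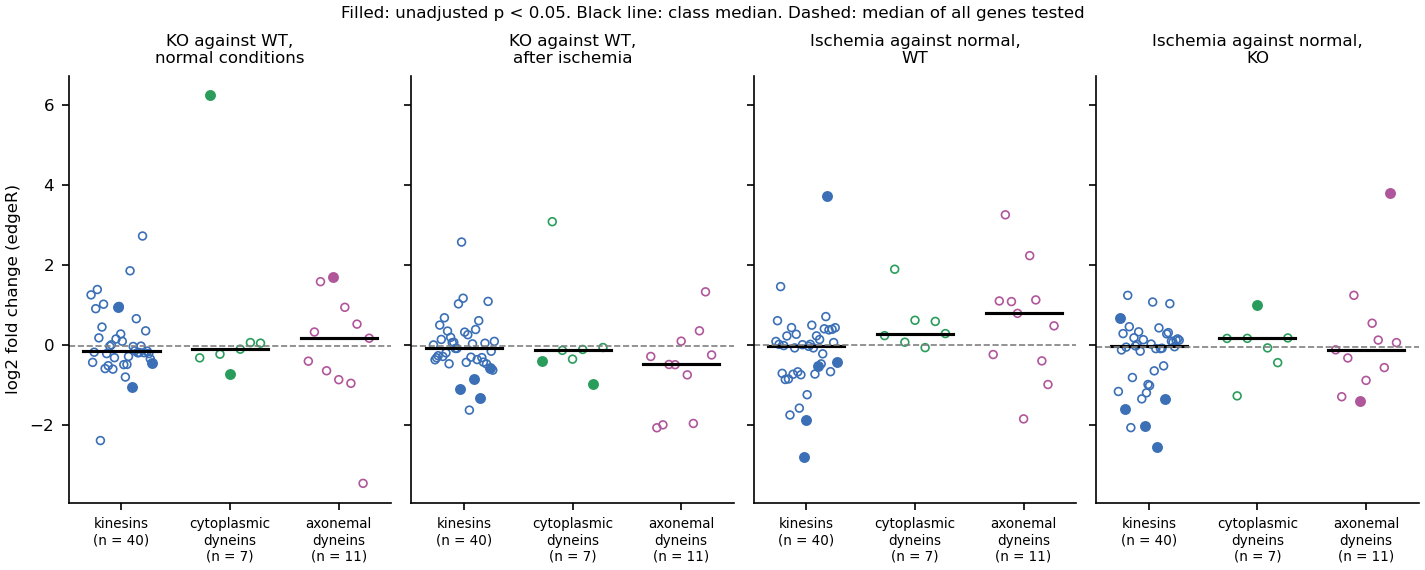
Log2 fold change of each tested member in the 4 comparisons between groups, by class, with filled points for an unadjusted p under 0.05, a black line at the class median and a dashed line at the median of all genes tested. Points scatter on both sides of 0 in every class, and the class medians lie between −0.48 and 0.79.

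**Figure D3:**
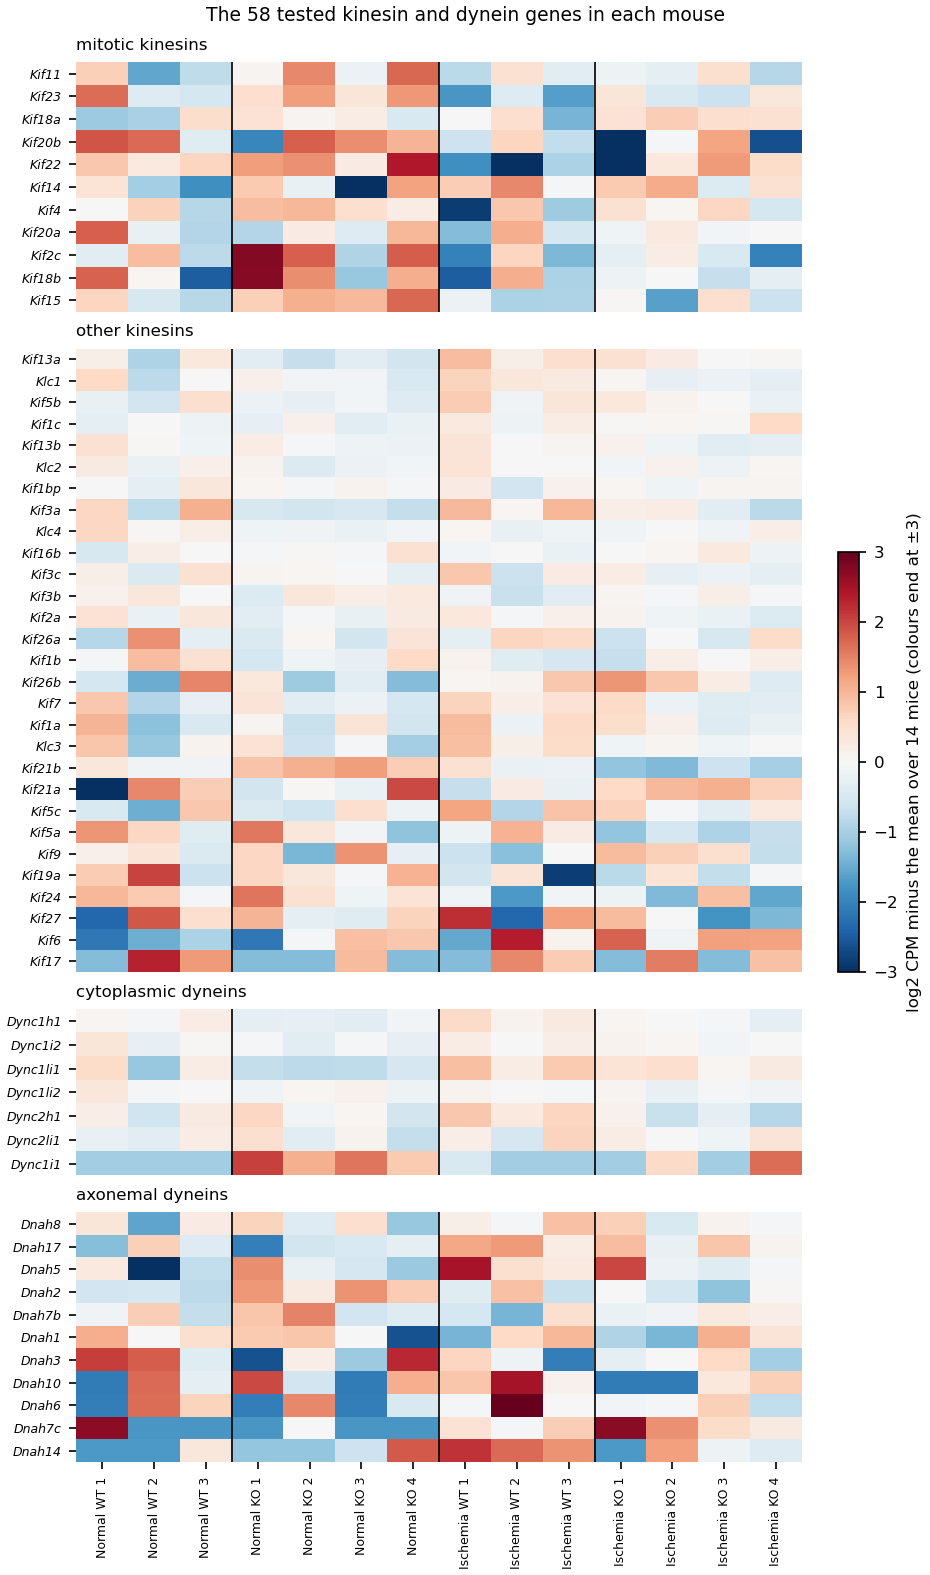
Log2 CPM of the 58 tested members in each of the 14 mice minus the gene's mean over the mice, in blocks by class and ordered by level within a block; black lines part the 4 groups, red is above and blue below the mean, and colours end at ±3. Kif21b is high in the 4 Normal KO mice and low in the 4 Ischemia KO mice, and low-count genes at the foot of each block vary most.

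Kif21b fell in the KO mice after ischemia. It encodes a kinesin-4 motor best known from neurons and immune cells, where it steers cargo and restrains microtubule growth, and it lies at chr1:136131389-136177998 on the plus strand (GRCm38) with no overlapping gene. The 3 Normal WT mice held 7.23, 5.29 and 5.36 CPM and the 4 Normal KO mice 10.4, 12.1, 13.8 and 9.66. The 3 Ischemia WT mice held 7.91, 5.001 and 5.11 CPM and the 4 Ischemia KO mice 2.496, 2.24, 3.71 and 2.83. The WT groups overlapped, every Normal KO mouse lay above both and every Ischemia KO mouse below both. In KO mice the fall was 4.07-fold, with a log2 fold change of −2.03 (SE 0.25) and an edgeR FDR of 0.0063, and Kif21b ranked 5 by p among 17693 genes. The groups of 4 mice did not overlap (exact permutation over mice, two-sided, p = 0.0286, which is the lowest value 4 against 4 or 3 mice can reach). Leaving out each mouse in turn kept the call in all 14 fits, with the edgeR FDR between 0.00518 and 0.0427. Averaged over genotypes, the log2 fold change was −1.01 (SE 0.19, edgeR FDR 0.0265), but in WT mice the means were 5.96 ± 1.10 and 6.01 ± 1.65 CPM (n = 3 each). That averaged call was lost without Normal KO replicate 2 or 3, Ischemia WT replicate 2 or 3, or Ischemia KO replicate 1, 2 or 4, with the edgeR FDR then between 0.0542 and 0.0905. Between genotypes Kif21b differed in opposite directions at rest and after ischemia, short of the threshold in each. Normal KO mice were 1.93-fold above Normal WT (log2 fold change 0.95, SE 0.27, edgeR FDR 0.866) and Ischemia KO mice 2.13-fold below Ischemia WT (log2 fold change −1.09, SE 0.26, edgeR FDR 0.715). Neither pair of groups overlapped (exact permutation over mice, p = 0.0286 for each). Kif21b was named for its small p on these same values, here and for ischemia in KO. The overlap and permutation results are therefore no independent evidence. The interaction, the difference of these log2 fold changes, was −2.04 (SE 0.38). It ranked 1 by p among all genes tested, yet its edgeR FDR was 0.946, while the DESeq2 FDR was 0.000764. Erythroid, lymphocyte and macrophage markers were also lower in Ischemia KO than in Normal KO in part, and neutrophil markers were not. The 3 erythroid markers summed to between 283 and 481 CPM in Normal KO and between 62.5 and 151 in Ischemia KO, and all 3 were lower with p under 0.05, while their range was 88.0 to 194 in Normal WT and 3.98 to 89.8 in Ischemia WT, where 2 of 3 were lower with p under 0.05 and Kif21b was level. The 4 lymphocyte markers summed to between 1.26 and 8.96 CPM in Normal KO and between 0.456 and 1.75 in Ischemia KO, with 1 of 3 tested lower (Cd3e), and to between 0.830 and 3.78 in Normal WT and 0.635 and 1.49 in Ischemia WT. Macrophage markers ran from 82.7 to 266 in Normal KO and from 57.7 to 136 in Ischemia KO, with 2 of 4 lower (Cd68 and Csf1r), and from 68.0 to 138 and 24.5 to 97.8 in the WT groups. The 4 neutrophil markers, of which Ly6g was at 0 in every mouse, summed to between 1.74 and 5.83 CPM in Normal KO and 1.40 and 15.3 in Ischemia KO (0 of 3 tested with p under 0.05, median log2 fold change 1.11), and to between 0.767 and 5.50 in Normal WT and 1.19 and 11.4 in Ischemia WT. Of 7 neuron markers Th was at 0 in every mouse and the sum reached at most 3.81 CPM in any library. The part of these markers in the Kif21b result was not tested. Of the 5 neuron-enriched kinesins, Kif21b and Kif5a had p under 0.05 for ischemia in KO, both lower, and Kif1a, Kif3c and Kif5c did not.

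**Figure D4:**
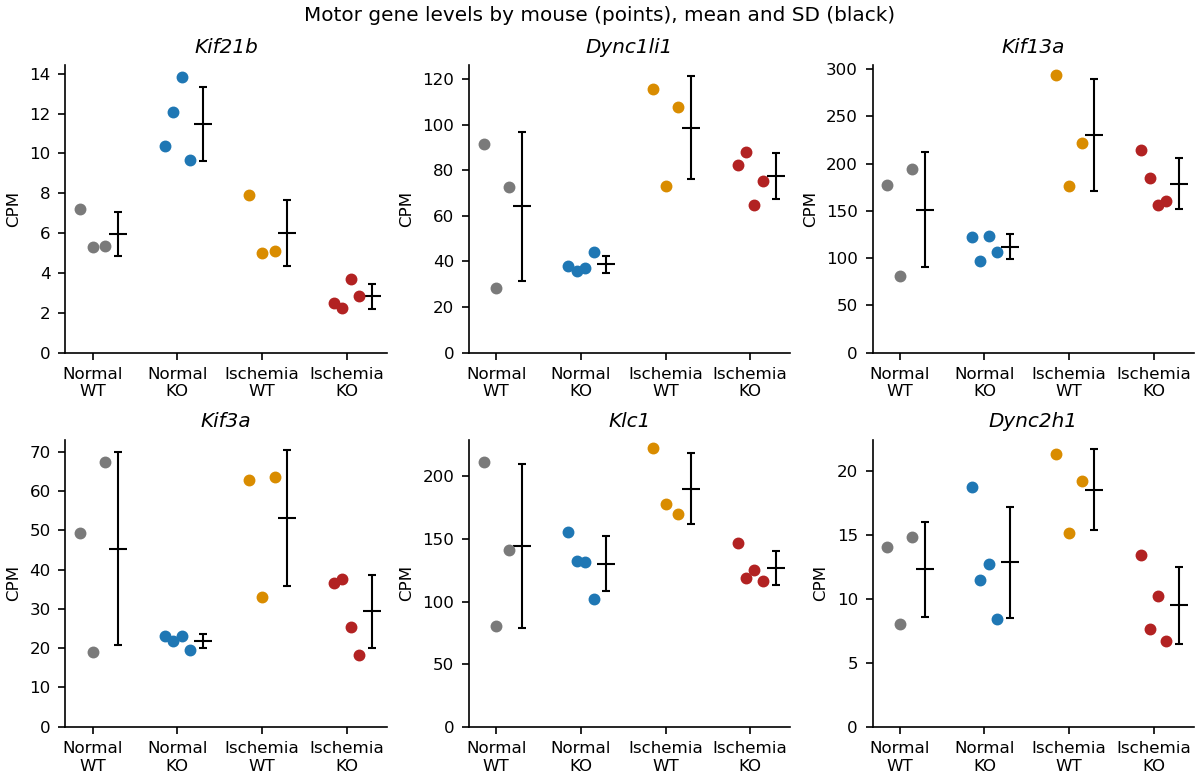
CPM of 6 members in each mouse (points) with the mean and SD of each group in black, on linear axes from 0. Kif21b separates Normal KO (9.66 to 13.8) from Ischemia KO (2.24 to 3.71), while Dync1li1, Kif13a and Kif3a have 1 low mouse, replicate 2, in Normal WT.

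Among the other kinesin-4 genes none had p under 0.05 in any comparison. Kif21a, the paralog of Kif21b, ran from 0 to 16.3 CPM. Its normal groups overlapped, whereas every Ischemia KO mouse (6.15 to 8.63) lay above every Ischemia WT mouse (2.49 to 4.80). Kif7 and Kif27, which act in Hedgehog signalling at the cilium, ran from 6.36 to 20.7 and from 0 to 1.37. Kif4 is counted with the mitotic kinesins below.

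Kinesin-1, the motor built of Kif5 heavy chains and Klc light chains, gave p under 0.05 in scattered members, none of them called. Klc1, Dync2h1 and Dnah14 had been chosen by the study on these mice, so their tests are not independent evidence. Klc1 held 212, 80.9 and 141 CPM in Normal WT and 156, 132, 132 and 102 in Normal KO. After ischemia it held 222, 178 and 170 in WT and 147, 119, 125 and 117 in KO. The ischemic groups did not overlap and differed by a log2 fold change of −0.58 (SE 0.26, edgeR FDR 0.715), while the normal groups overlapped fully. With the brown adipocyte level as a covariate the ischemic difference was −0.11 (edgeR FDR 0.954). Kif5b, the kinesin-1 heavy chain with the highest level, overlapped between genotypes in both conditions, with 107, 83.8 and 173 CPM in Normal WT, 111, 104, 117 and 94.5 in Normal KO, 209, 115 and 158 in Ischemia WT and 153, 134, 123 and 108 in Ischemia KO. Its log2 fold change for KO against WT after ischemia was −0.31 (edgeR FDR 0.751), within the spread between mice. It was −0.08 without Ischemia WT replicate 1 and −0.06 with the brown adipocyte covariate (edgeR FDR 0.990). Klc4, another light chain, was steady in every group but the first, with 39.7, 26.2 and 29.7 CPM in Normal WT, 22.5 to 24.3 in Normal KO, 21.98 to 26.5 in Ischemia WT and 23.7 to 29.3 in Ischemia KO. It was lower in Normal KO than in Normal WT with no overlap (log2 fold change −0.44, SE 0.16, edgeR FDR 0.910) and lower in Ischemia WT than in Normal WT (log2 fold change −0.41, edgeR FDR 0.514), and its interaction was 0.53 (edgeR FDR 0.946). Kif5a, the neuronal heavy chain, was low throughout: 1.52 to 3.61 CPM in Ischemia WT and 0.713 to 1.17 in Ischemia KO, a log2 fold change of −1.33 (edgeR FDR 0.715). All 7 kinesin-1 genes had a fitted change below 0 for KO against WT under normal conditions and over both conditions, with medians of −0.19 and −0.25. Of these genes 1 and 0 had p under 0.05, beside 5.25% and 7.77% of all genes. Among all 58 members 33 and 37 were below 0, and all genes had medians of −0.02 and −0.001. Both comparisons use the normal mice, so they are not independent.

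Kif3a, a heavy chain of the kinesin-2 motor that drives transport into the cilium and carries membrane cargo, had the smallest p of all members for KO against WT over both conditions. It held 49.4, 19.0 and 67.5 CPM in Normal WT and 23.0, 21.8, 23.0 and 19.4 in Normal KO. After ischemia it held 62.9, 33.1 and 63.4 in WT and 36.6, 37.5, 25.3 and 18.2 in KO. In each condition WT replicate 2 lay within or near the KO range and the other WT mice above it. Over both conditions the log2 fold change was −0.95 (SE 0.26, edgeR FDR 0.533). Without Normal WT replicate 2 it was −1.12 with an edgeR FDR of 0.0278, past the threshold, and with the brown adipocyte level as a covariate it was −0.58 (FDR 0.503). Its partner heavy chain Kif3b had p over 0.05 for KO against WT. It held 25.3, 29.1 and 22.9 CPM in Normal WT and 21.4, 14.4 and 18.5 in Ischemia WT, groups that did not overlap (log2 fold change −0.51, SE 0.22, edgeR FDR 0.514), against 17.3 to 28.9 in Normal KO and 22.1 to 25.9 in Ischemia KO. Kif3c, the neuronal member, ran from 15.4 to 42.4 CPM, and Kif17 from 0 to 0.675, with p over 0.05 in every comparison. In Kif3c 39.6% of the exon 50-mers are shared, mainly with an antisense transcript.

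Kif13a of the kinesin-3 family, which moves recycling endosomes, had p under 0.05 for ischemia, short of the threshold. It held 177, 81.4 and 195 CPM in Normal WT, 122, 96.4, 124 and 106 in Normal KO, 294, 176 and 222 in Ischemia WT and 214, 185, 156 and 161 in Ischemia KO. KO mice of the 2 conditions did not overlap, whereas Normal WT replicates 1 and 3 lay above Ischemia WT replicate 2. The log2 fold change was 0.68 in KO (SE 0.25, edgeR FDR 0.276) and 0.64 over both genotypes (SE 0.19, edgeR FDR 0.126), where DESeq2 gave an FDR of 0.0310. The 6 smooth muscle markers summed to between 7006 and 24901 CPM in Normal WT, 10269 and 24334 in Normal KO, 19864 and 36209 in Ischemia WT and 18460 and 29954 in Ischemia KO. With their level as a covariate the log2 fold change over both genotypes was 0.22 (edgeR FDR 0.525). The mean of these sums was itself higher after ischemia in both genotypes. The parts of marker level and ischemia therefore cannot be told apart by this covariate, and the part of smooth muscle was not tested. Kif1c, which carries vesicles and mRNA to the cell edge, ran from 94.9 to 115 CPM in Normal WT, 93.6 to 128 in Normal KO, 104 to 141 in Ischemia WT and 118 to 174 in Ischemia KO, a log2 fold change of 0.30 over both genotypes (edgeR FDR 0.261). The other tested kinesin-3 genes, Kif1a, Kif1b, Kif13b, Kif14 and Kif16b, had p over 0.05 in each comparison. Kif1bp stayed between 25.6 and 48.0 CPM in all mice.

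For ischemia over both genotypes 30 of all 58 members had a fitted change below 0, among them 9 of the 11 mitotic kinesins. Mitotic kinesins were low, and none of them passed the threshold there. These motors build the spindle (Kif11, Kif15), align and move chromosomes (Kif18a, Kif22, Kif4), take microtubules apart (Kif2c) or cut the cell apart (Kif20a, Kif23, Kif14), and cells make them mostly while they divide. Over both genotypes their median log2 fold change for ischemia was −1.15 beside −0.05 for all genes, with medians of −0.70 in WT and −1.16 in KO; 2 of 11 had p under 0.05 in each (Kif22 and Kif23 in WT and over both, Kif2c and Kif15 in KO), all lower and none called, beside the 18.1%, 9.57% and 13.2% of all genes given above.

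Kif23, the motor of the central spindle, held 3.89, 0.888 and 0.793 CPM in Normal WT and 1.69, 2.89, 1.51 and 2.95 in Normal KO. After ischemia it held 0.304, 0.884 and 0.332 in WT and 1.52, 0.8293, 0.731 and 1.49 in KO. Normal WT was led by replicate 1, and the WT groups overlapped. Its log2 fold change was −1.88 in WT (SE 0.71, edgeR FDR 0.513), or −0.74 without Normal WT replicate 1, and −1.43 over both genotypes (SE 0.46, edgeR FDR 0.145). Kif22 ran from 0.604 to 0.885 CPM in Normal WT and from 0 to 0.221 in Ischemia WT without overlap, and from 0.587 to 2.79 and 0 to 1.26 in the KO groups with overlap (log2 fold change −1.995 over both genotypes, edgeR FDR 0.229). The KO groups did not overlap for Kif15, with 0.564 to 1.20 CPM before and 0.0614 to 0.468 after ischemia (log2 fold change −1.59, edgeR FDR 0.376), and Kif2c ran from 0.136 to 2.43 CPM and from 0.0304 to 0.369 with overlap (log2 fold change −2.55, edgeR FDR 0.310). For ischemia, 8 dividing cell markers had a median log2 fold change of −0.04 in WT, −1.17 in KO and −0.59 over both genotypes. The mitotic kinesins had −0.70, −1.16 and −1.15 in the same order. The summed level of the 8 markers was 3.62 to 21.7 CPM in Normal WT, 15.7 to 39.5 in Normal KO, 1.28 to 17.6 in Ischemia WT and 7.16 to 15.8 in Ischemia KO. The summed mitotic kinesins were at 4.83 to 14.2, 7.70 to 17.9, 3.54 to 9.73 and 6.14 to 8.80 CPM in the same order of groups. For ischemia over both genotypes 1 of the 8 markers (Ccnb1) was lower with p under 0.05 and none was called. The part of dividing cells in the kinesin values was not tested.

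**Figure D5:**
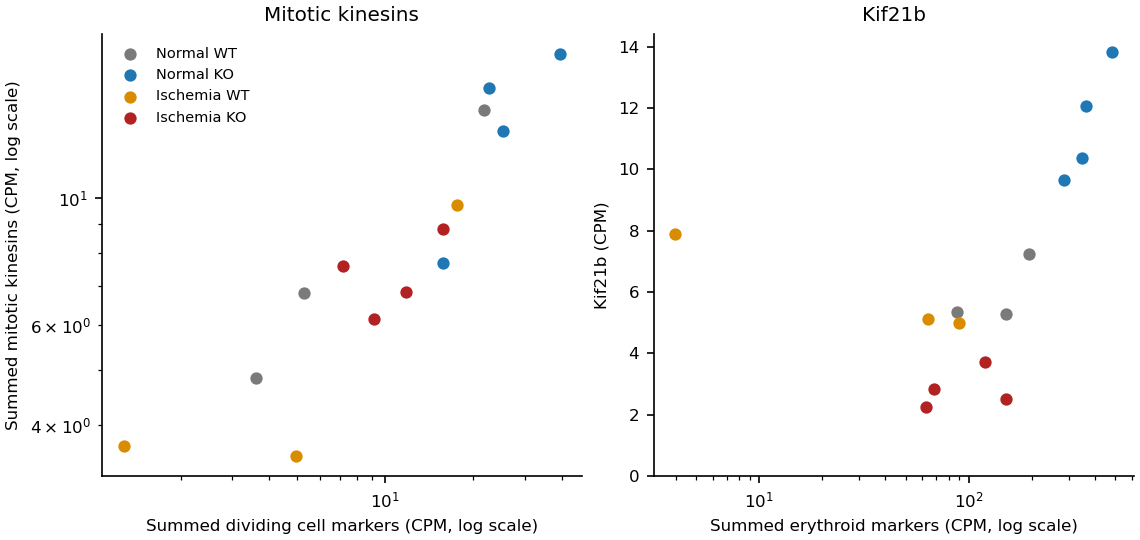
Each mouse as a point coloured by group: summed mitotic kinesins against summed dividing cell markers on log axes (left), and Kif21b on a linear axis against summed erythroid markers on a log axis (right), all in CPM. The 3 mice with the highest dividing cell sums are Normal KO mice, and the Normal KO mice also hold the highest erythroid sums (283 to 481) and Kif21b levels (9.66 to 13.8).

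Promoters of genes that are switched on for division often carry a CCAAT box and, close to the start, the cell cycle gene homology region (CHR). The RefSeq promoter windows (GRCm38.p6, 250 bases before the start to 50 after it) were searched on both strands for CCAAT and for TTTGAA or TTTAAA, the usual CHR letters, which share no full match with CCAAT. A CHR match was found in 9 of the 10 mitotic kinesin promoters in the table, in 8 of 42 promoters of the other tested members (19.0%) and in 27.6% of all 32851 promoters, and CCAAT in 60.0%, 33.3% and 37.4%. Both together were in 60.0%, 9.52% and 10.7%. Shown are the 4 mitotic kinesins with p under 0.05 after ischemia, from 110 bases before the start to 20 after it along the gene's strand, with the matches in capitals (ATTGG and TTCAAA are the same motifs read on the other strand).
Kif22: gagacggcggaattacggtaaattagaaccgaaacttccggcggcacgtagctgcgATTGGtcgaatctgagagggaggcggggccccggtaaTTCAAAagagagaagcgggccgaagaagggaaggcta
Kif23: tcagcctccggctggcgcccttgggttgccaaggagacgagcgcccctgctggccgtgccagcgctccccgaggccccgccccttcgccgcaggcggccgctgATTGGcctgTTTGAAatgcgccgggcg
Kif15: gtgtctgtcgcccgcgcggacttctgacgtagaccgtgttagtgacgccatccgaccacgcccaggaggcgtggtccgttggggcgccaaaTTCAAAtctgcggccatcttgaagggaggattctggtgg
Kif2c: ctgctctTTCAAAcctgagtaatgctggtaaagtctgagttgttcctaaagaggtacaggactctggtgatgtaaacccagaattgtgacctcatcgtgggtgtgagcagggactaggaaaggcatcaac
Kif22 lies at chr7:127042401-127042530 (minus strand), Kif23 at chr9:61946780-61946909 (minus strand), Kif15 at chr9:122950971-122951100 (plus strand) and Kif2c at chr4:117178753-117178882 (minus strand). The window of Kif2c lies inside the gene as GENCODE M21 annotates it (start at 117182639), so it belongs to an alternative start. The same holds for the windows of Kif14 (gene start at 136466343) and Kif4 (gene start at 100625737), which are not shown. These windows are counted in the 9 of 10, and those of Kif14 and Kif4 also in the CCAAT share. A match describes the letters in the window and does not show binding.

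No dynein-1 subunit passed the threshold, and Dync1li1 came nearest. Dync1li1 encodes a light intermediate chain that ties the motor to its cargo adaptors; it held 91.8, 28.1 and 72.8 CPM in Normal WT and 37.8, 35.9, 37.0 and 44.2 in Normal KO. After ischemia it held 116, 73.0 and 108 in WT and 82.3, 87.9, 64.6 and 75.1 in KO. The KO mice of the 2 conditions did not overlap, and Normal WT replicate 2 lay below all other mice. In KO the log2 fold change for ischemia was 1.001 (SE 0.28, edgeR FDR 0.158; exact permutation over mice, p = 0.0286), and over both genotypes the log2 fold change was 0.81 (SE 0.22, edgeR FDR 0.0975). The call for Dync1li1 depended on these settings. In KO the edgeR FDR was 0.0164 without Normal WT replicate 2 and 0.00947 with the KO groups alone, and DESeq2 gave 0.0290; over both genotypes the edgeR FDR was 0.0337 without Normal WT replicate 1. With the smooth muscle marker level as a covariate the log2 fold changes were 0.59 (edgeR FDR 0.273) and 0.42 (edgeR FDR 0.439). As for Kif13a, the parts of marker level and ischemia cannot be told apart by this covariate, and the part of smooth muscle was not tested. Normal KO was also below Normal WT (log2 fold change −0.73, edgeR FDR 0.929), with overlap through Normal WT replicate 2. Dync1h1, the heavy chain that holds the motor, held 455, 424 and 512 CPM in Normal WT, 355, 367, 352 and 415 in Normal KO, 644, 467 and 529 in Ischemia WT and 454, 432, 424 and 360 in Ischemia KO. In both conditions every KO mouse lay below every WT mouse, by a log2 fold change of −0.35 over both conditions (SE 0.12, edgeR FDR 0.588). After ischemia alone it was −0.39 (edgeR FDR 0.715; exact permutation over mice, p = 0.0286). The other widely expressed subunits had p over 0.05 in every comparison, with Dync1i2 at 77.7 ± 16.5, 66.4 ± 6.88, 81.7 ± 7.49 and 74.6 ± 3.91 CPM in the same order of groups and Dync1li2 at 54.6 to 80.5 CPM over all mice. Dync1i1, the neuronal intermediate chain, was at 0 counts in all 3 Normal WT mice and at 0.451, 0.197, 0.316 and 0.153 CPM in Normal KO, which is at least 2.72-fold higher when the Normal WT mean is set to its floor of 3 counts per library (0.103 CPM). After ischemia it was at 0.0304, 0 and 0 in WT and at 0, 0.123, 0 and 0.334 in KO. The highest count in any library was 16 (edgeR FDR 0.892 under normal conditions). Dync1i1 had enough counts to be tested only through KO mice (16 and 14 in Normal KO replicates 1 and 3, 11 in Ischemia KO replicate 4). A higher level in KO was thus a condition of its test, and its fold is no independent evidence.

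Dync2h1, the heavy chain of the dynein-2 motor that returns material from the cilium tip, had p under 0.05 for KO against WT after ischemia, short of the threshold. It held 14.1, 8.02 and 14.8 CPM in Normal WT and 18.8, 11.5, 12.8 and 8.41 in Normal KO. After ischemia it held 21.3, 15.1 and 19.2 in WT and 13.4, 7.68, 10.2 and 6.72 in KO. The ischemic groups did not overlap and the normal groups did. The log2 fold change was −0.97 after ischemia (SE 0.31, edgeR FDR 0.715; exact permutation over mice, p = 0.0571), or −0.49 with the brown adipocyte covariate (edgeR FDR 0.779), and the interaction was −1.03 (SE 0.45, edgeR FDR 0.946). Its light intermediate chain Dync2li1 ran from 6.47 to 17.0 CPM and had p over 0.05 in every comparison. The list of 11 cilium motors held Kif3a, Kif3b and Kif17 of kinesin-2, Kif6, Kif7, Kif9, Kif19a, Kif24, Kif27 and dynein-2. For KO against WT after ischemia 2 of the 11 had p under 0.05, both lower, beside 6.48% of all genes. For ischemia in WT 2 did, Kif3b lower and Kif6 higher, beside 9.57%. Kif6 was at 0, 0.0355 and 0.0755 CPM in Normal WT and at 0.0304, 1.29 and 0.221 in Ischemia WT, with replicate 2 of Ischemia WT far above the rest (edgeR FDR 0.514).

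Axonemal dyneins were low, and none was called. Dnah2, an inner arm heavy chain, held 0.620, 0.639 and 0.528 CPM in Normal WT and 2.43, 1.15, 2.51 and 1.66 in Normal KO. After ischemia it held 0.730, 1.80 and 0.580 in WT and 0.951, 0.645, 0.380 and 0.973 in KO. Every Normal KO mouse lay above every Normal WT and every Ischemia KO mouse, while Ischemia WT replicate 2 lay within their range. The log2 fold change was 1.69 for KO against WT under normal conditions (SE 0.58, edgeR FDR 0.882) and −1.39 for ischemia in KO (SE 0.51, edgeR FDR 0.271), and the interaction was −2.18 (edgeR FDR 0.946). Dnah14, an inner arm heavy chain, held 0, 0 and 0.189 CPM in Normal WT, 0.0282, 0.0281, 0.0678 and 0.644 in Normal KO, 0.821, 0.578 and 0.442 in Ischemia WT and 0, 0.399, 0.117 and 0.0912 in Ischemia KO. The ischemic groups did not overlap (log2 fold change −1.99, edgeR FDR 0.737), but several mice were under the floor of 3 counts, 0.0678 to 0.113 CPM per library. Dnah14 had enough counts to be tested only with the help of the Ischemia WT mice (27, 17 and 16 counts). The ischemic difference is thus partly set by that selection. The Dnah14 value was −3.04 without Ischemia KO replicate 2 and −4.53 with the brown adipocyte covariate (edgeR FDR 0.748). Dnah17, an outer arm heavy chain, had p under 0.05 for ischemia over both genotypes (log2 fold change 1.17, edgeR FDR 0.205), with 0.384 to 1.70 and 0.198 to 0.828 CPM before and 1.19 to 2.52 and 0.860 to 1.96 after. Dnah7c had p under 0.05 for ischemia in KO (edgeR FDR 0.354) at 0.0351 CPM before and 0.531 after on average, and its reads are shared with Dnah7b. Dnah7c had enough counts to be tested only with the help of Ischemia KO replicates 1 and 2 (42 and 15 counts). Normal KO held 0, 5, 0 and 0 counts. Its difference for ischemia in KO is thus partly set by that selection. Dnah8, the most abundant, stood at 3.21 ± 1.84 CPM in Normal WT, 3.62 ± 1.86 in Normal KO, 4.48 ± 1.62 in Ischemia WT and 3.78 ± 1.32 in Ischemia KO, and Dnah5 at 0.443 ± 0.458, 0.863 ± 0.789, 2.11 ± 1.96 and 1.26 ± 1.26 CPM. For Dnah5, Dnah8, Dnah1, Dnah3, Dnah6, Dnah7b and Dnah10 the test gave p over 0.05 in every comparison.

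Genes that work with the motors were described from 6 lists, and none of their members was called in any comparison. Of 12 dynactin subunits, the complex that links dynein to cargo, 3 had p under 0.05 for ischemia over both genotypes: Capzb (log2 fold change 0.32) and Dctn4 (0.28) higher and Dctn5 (−0.35) lower, with a list median of 0.14. Of 12 dynein adaptors and regulators 5 did, with Bicd2 (0.44), Ndel1 (0.34) and Rab11fip3 (0.43) higher and Rilp (−0.58) and Spdl1 (−1.997) lower, beside 18.1% of all genes; the smallest edgeR FDR among them was 0.119. Of 18 intraflagellar transport genes, 2 did, Ift43 (0.62) higher and Ift52 (−0.61) lower. No dynein light chain of 8 tested and no kinesin adaptor of 11 did, and 1 of 5 tested axonemal subunit and assembly genes did (Zmynd10, with group means between 0 and 0.293 CPM). The mean of Zmynd10 was 0.293 CPM in Ischemia KO and at most 0.0460 in the other groups. It had enough counts to be tested only through Ischemia KO mice, so its difference is partly set by that selection. For KO against WT after ischemia 6.48% of all genes had p under 0.05. The counts there were 0 of 12 dynactin subunits, 0 of 12 dynein adaptors, 0 of 18 intraflagellar transport genes, 0 of 8 light chains and 0 of 5 axonemal genes. Of 11 kinesin adaptors 1 did, Spag9 (log2 fold change −0.45, edgeR FDR 0.715), a scaffold that binds kinesin light chains. Under normal conditions only Actr10 of dynactin had p under 0.05 (−0.37, edgeR FDR 0.937), beside 5.25% of all genes. Over both conditions Bicd2 (−0.40, edgeR FDR 0.637) and Spag9 (−0.34, edgeR FDR 0.614) did, both lower in KO, beside 7.77%.

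The 9 members left untested were Kif12, Kif2b, Kif22-ps and Kif4-ps, at 0 counts in every mouse, and Kif16bos, Dnah7a, Dnah9, Dnah11 and Dnah12, which reached at most 0.790 CPM in any mouse (Dnah11, Normal KO replicate 1). A count of 0 allows a level up to the floor of 3 counts, at most 0.113 CPM per library, which covers counting error only. Each library is a separate mouse by the labels.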

How the data were processed

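Total RNA of the SMA was sequenced on an Illumina platform, and the authors deposited 1 table of whole-number counts per gene and mouse. The submitters' processing notes name HISAT2 2.0.4 and mm10; the counting program, gene annotation and strand setting are not given in the sources used here, and the study's methods describe microarrays for these mice. Counts on overlapping or near-identical genes may therefore be shared.

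From the deposited counts, genes were filtered with filterByExpr by the 4 groups, scaled with TMM and tested in edgeR 4.0.16 (quasi-likelihood, R 4.3.3) in 1 fit of all 14 mice, with Benjamini-Hochberg adjustment over 17693 genes. A gene was called at an FDR under 0.05 and a fold over 1.5. SE is the log2 fold change divided by the root of its F value. The biological coefficient of variation was 0.522. Single members were also compared by two-sided exact permutation of mean log2 CPM (prior count 2), whose smallest p is 0.0286 for 4 against 3 or 4 mice and 0.10 for 3 against 3. For members named for a small p it is no independent check, and the share of all genes without overlap was not counted. The fit was checked on simulated data. Exon lengths, shared 50-base stretches and reading frames came from GENCODE M21 (GRCm38), promoters from RefSeq.

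Members named in full were those of the study's microtubule term with Dync1h1 and Kif5b, those called, and the 3 with the smallest p in each of 7 contrasts. Members and lists were chosen with earlier results of these data known. Alternatives were DESeq2 1.42.0, its size factors in edgeR, no filter, at least 10 counts in every mouse, only the groups compared, no fold limit, a replicate block and leaving out each mouse, and, chosen after seeing the data, leaving out Normal WT replicates 2 and 3 and marker covariates. Deviations of same-numbered mice correlated at −0.146 to 0.316 over 19 pairs, 11 of them over 0.1. Only between Normal WT and Ischemia WT was every pair over 0.1 (0.120 to 0.192), which is at most a hint of pairing, since the labels name no shared litter, batch or day. The main fit used no pairing, and the replicate block was run over all comparisons as an alternative. No pair of libraries within a group agreed within counting noise (lowest chi-square per degree of freedom 46.6, 18 pairs).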

Additional observations from a re-analysis of the deposited data

Results flagged for a closer look

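Dnah14, an axonemal dynein heavy chain, stood apart in Normal KO replicate 4 at 0.644 CPM, where the next highest of the 4 Normal KO mice had 0.0678. The gap was 0.936 of the group's range, above Dixon's 95% limit for 4 values. Of 28 groups of 4 examined, 1 was past that limit, where chance alone passes about 1 in 20 groups.

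Kif21b was higher in KO at rest and lower in KO after ischemia, with every mouse of each KO group outside the range of its WT group. It was named for its small p in these comparisons, so the lack of overlap is no independent evidence. The difference between both log2 fold changes was −2.04 (edgeR interaction, FDR 0.946).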

How the results depend on the processing

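No named member's log2 fold change turned sign under any alternative run; 49 of 453 class medians did, among them those of the axonemal dyneins for KO against WT over both conditions (main −0.34, up to 0.29) and for the interaction (main −0.42, up to 0.21). The count of members called moved as follows. DESeq2 gave 1 for KO against WT after ischemia, 2 for ischemia in KO, 4 for ischemia over both genotypes (Dync1li1, Kif13a, Kif21b and Kif23), 1 for the interaction and 1 for the 3 groups. Fitting only the groups compared gave 2 for ischemia in KO (Dync1li1 and Kif21b). Leaving out single mice gave 1 to 2 for ischemia in KO, 0 to 2 over both genotypes and 0 to 2 for KO against WT over both conditions (2 without Normal WT replicate 2, Dync1li1 and Kif3a). Without Normal WT replicates 2 and 3, which leaves 1 Normal WT mouse assumed to vary like the other groups, the counts were 2 for KO against WT under normal conditions (Dync1li1 and Kif21a), 4 over both conditions (Dync1li1, Kif21a, Kif3a and Klc1), 2 for ischemia in KO and 0 over both genotypes. The smooth muscle covariate gave 0 for ischemia over both genotypes, where Kif21b had an edgeR FDR of 0.0602, and the brown adipocyte covariate gave 2 there and 2 in KO. The cause was not tested.

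Counts over all genes moved more: for ischemia in KO 52 became 613 with DESeq2, 267 with only the groups compared and 5 to 174 without single mice, 207 without both WT libraries, 125 with the smooth muscle and 354 with the brown adipocyte covariate. Over both genotypes 164 became 876 with DESeq2, 60 to 361 without single mice, 59 without both WT libraries and 523 with the brown adipocyte covariate. For ischemia in WT 2 became 112 with DESeq2, 0 to 3 without single mice, 0 with the replicate block, with only the groups compared or without both WT libraries, and 5 with the brown adipocyte covariate. For KO against WT the 0 became 50 under normal conditions, 32 after ischemia and 91 over both conditions with DESeq2, 29 and 102 without Normal WT replicate 2, 132 and 689 without both WT libraries (normal and both conditions), and 3 and 6 with the brown adipocyte covariate. The interaction and the 3 groups, 0 each, became 13 and 161 with DESeq2, and the 3 groups 5 at most without single mice and 9 with the brown adipocyte covariate.

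The replicate block left the count of members called as it was in every comparison, and Kif21b in KO had a log2 fold change of −2.03 with an FDR of 0.0187; over all genes it gave 1 for KO against WT over both conditions in place of 0.

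With 3 or 4 mice a group and a biological coefficient of variation of 0.522, small changes were not detectable, and members under the floor of 3 counts per library give no fold.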

Other observations

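Kif21a, the kinesin-4 paralog of Kif21b, had 0 counts in Normal WT replicate 1, where the other 13 mice held between 2.49 and 16.3 CPM; the floor of 3 counts in that library is 0.0885 CPM. The other Normal WT values were 11.1 and 6.87 CPM. Kif21a and the following genes were chosen after their values were seen.

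Kif26a, an atypical kinesin, was highest in Normal WT replicate 2 at 44.0 CPM, the library with the highest brown adipocyte sum, and ran from 9.44 to 26.6 CPM elsewhere. Kif26b, its paralog, was lowest there at 3.94 CPM and highest, at 31.0 CPM, in Normal WT replicate 3.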
